A study of Mus musculus with 2 samples.

Results

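The genes described here encode 4 kinds of secreted defence protein, namely haptoglobin (*Hp*), the serum amyloid A proteins (*Saa1*, *Saa2* and *Saa3*), the antimicrobial proteins lipocalin 2 (*Lcn2*) and the Reg3 lectins (*Reg3a*, *Reg3b* and *Reg3g*), and orosomucoid 1 (*Orm1*). These 9 symbols were chosen from the measured values of the same libraries that are described below, so their levels and ratios are a description with no test. Of the 9, the expression table listed 8 among its 18159 gene symbols, and *Saa2* had no row.

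RNA was from the muscle layer (tunica muscularis) of the jejunum, the middle small intestine, in C57BL/6 mice at P15 (15 days of age). Both genotypes carried the transgene Tg(Myh11-cre,-EGFP)2Mik, in which the promoter of *Myh11*, the smooth muscle myosin heavy chain gene, drives Cre recombinase and eGFP, and the labels list Dnmt1lox/lox for both. *Dnmt1*, the maintenance DNA methyltransferase gene, was deleted by Cre in *Dnmt1*-KO mice and, by the genotype label, was wild type in *Dnmt1*-WT mice. The paper gives *Dnmt1*-WT mice as smMHCCre-eGFP/+ with no lox allele named, which differs from the listed Dnmt1lox/lox. The comparison asks which transcripts differed in the muscle layer of mice with *Dnmt1* deleted in smooth muscle cells. Each genotype was represented by 1 mRNA library and, per the methods, by 4 mice, 2 male and 2 female. The methods do not state how their RNA was combined. The free-text description gives smMHCCre-eGFP/+;Dnmt1-/- for both samples, whereas the title and genotype label of one give WT. The RNA was from muscle peeled off the mucosa, with no sort, so cells without Cre contributed to both libraries. *Dnmt1* itself stood at 11.58 FPKM in *Dnmt1*-WT and 7.58 FPKM in *Dnmt1*-KO, or 34.5% lower.

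Values are FPKM, which divide the fragments of a gene by its transcript length and by the library's mapped fragments, so levels can be ordered between genes. With 1 library per genotype no difference has a replicate check and no spread can be given for any value. The study states the mapped reads of each library, which were not used here, but the table holds no read counts per gene and no counting interval was computed. Values above 0 started at 0.03 FPKM in each library, and FPKM summed to 429698 in *Dnmt1*-WT and 460845 in *Dnmt1*-KO. In such bulk tissue, more cells of a type and more RNA per cell cannot be told apart. All 10 smooth muscle markers were listed, all 10 were lower in *Dnmt1*-KO, from a ratio of 0.427 in *Smtn* to 0.893 in *Cnn1*, and their summed level was 19545 FPKM in *Dnmt1*-WT and 13370 FPKM in *Dnmt1*-KO.

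Acute-phase proteins are plasma proteins whose synthesis, best known in the liver, is switched by the cytokines of inflammation through STAT3, NF-kB and C/EBP transcription factors. Haptoglobin binds free haemoglobin, serum amyloid A travels on high-density lipoprotein, lipocalin 2 withholds iron from bacteria by binding their siderophores, and orosomucoid is a carrier of small lipophilic molecules. The Reg3 lectins are made by enterocytes and Paneth cells, where REG3B and REG3G bind bacteria, and *Hp*, *Lcn2*, *Saa3* and *Orm1* are also known from adipose tissue or macrophages.

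Promoters of 4 of the genes are printed because the letters of the inducible factors named above could be searched in them. Each window runs from 250 bases before to 50 bases after the RefSeq start of the gene (GRCm38.p6), 5′ to 3′ on the strand of the gene. Capitals mark matches, on either strand, to GGGNNNNNCC (NF-kB-like), TTCNNNGAA (STAT-like) or TTNNGCAA (C/EBP-like), and no matches overlapped. The windows are chr7:46715627-46715926 on the minus strand (*Saa3*), chr2:32387690-32387989 on the minus strand (*Lcn2*), chr6:78370635-78370934 on the plus strand (*Reg3b*) and chr6:78468825-78469124 on the minus strand (*Reg3g*). RefSeq starts can differ from those of GENCODE M21, which gave the gene positions below. By GENCODE the whole *Lcn2* window lies within the gene (chr2:32384633-32388252). *Reg3b* begins at chr6:78370657 by GENCODE, so most of its window lies after that start.
Saa3: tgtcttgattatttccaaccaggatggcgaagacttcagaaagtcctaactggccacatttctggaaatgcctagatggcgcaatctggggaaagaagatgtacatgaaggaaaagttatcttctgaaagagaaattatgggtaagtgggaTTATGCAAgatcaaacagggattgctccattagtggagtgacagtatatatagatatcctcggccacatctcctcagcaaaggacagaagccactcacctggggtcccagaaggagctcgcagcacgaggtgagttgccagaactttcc
Lcn2: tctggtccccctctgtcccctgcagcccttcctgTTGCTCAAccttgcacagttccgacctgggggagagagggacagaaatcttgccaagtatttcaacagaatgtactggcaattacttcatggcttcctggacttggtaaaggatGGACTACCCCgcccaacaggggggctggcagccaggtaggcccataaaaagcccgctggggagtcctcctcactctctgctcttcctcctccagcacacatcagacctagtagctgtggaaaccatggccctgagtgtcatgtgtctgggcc
Reg3b: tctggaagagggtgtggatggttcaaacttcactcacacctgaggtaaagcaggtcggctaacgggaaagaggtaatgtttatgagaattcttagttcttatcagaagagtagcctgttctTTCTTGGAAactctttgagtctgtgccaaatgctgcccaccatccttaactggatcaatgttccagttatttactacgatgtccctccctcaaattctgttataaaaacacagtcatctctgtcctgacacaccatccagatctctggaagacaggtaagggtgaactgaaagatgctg
Reg3g: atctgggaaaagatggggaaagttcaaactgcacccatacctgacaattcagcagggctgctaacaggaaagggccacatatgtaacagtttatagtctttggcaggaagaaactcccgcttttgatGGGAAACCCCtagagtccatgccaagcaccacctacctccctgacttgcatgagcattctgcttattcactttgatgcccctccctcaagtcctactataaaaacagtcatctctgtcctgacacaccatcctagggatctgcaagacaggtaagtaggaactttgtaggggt

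Of the 9 genes, 7 had a RefSeq window, and the distances below are counted from the RefSeq start. The NF-kB-like letters began 102 bases before the start in *Lcn2*, 123 in *Reg3g*, 78 in *Saa1* and 79 in *Saa2*, and 50.8% of all 32851 windows held such a match. The STAT-like letters, present in 8.3% of all windows, occurred in *Reg3b*, where the match began 129 bases before the RefSeq start. By the GENCODE start of *Reg3b* this match lies after the start. The C/EBP-like letters, present in 10.8% of all windows, began 99 bases before the start in *Saa3*, 216 in *Lcn2*, 190 in *Reg3a*, 182 in *Saa1* and 183 in *Saa2*. Each of the 7 windows held at least 1 of these motifs, as did 61.4% of all windows, and *Saa1*, *Saa2* and *Lcn2* held both the NF-kB-like and the C/EBP-like letters, as did 4.33% of all windows. A match describes letters and not a bound site, and a window without one lacks only those letters. CpG dinucleotides, the substrate of DNMT1, numbered 5 in *Saa3*, 3 in *Lcn2*, 3 in *Reg3b*, 3 in *Saa2*, 2 in *Saa1*, 1 in *Reg3g* and 0 in *Reg3a*, against a median of 7.0 over all windows. All 7 windows were thus below the median in CpG number.

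The acute-phase and antimicrobial transcripts were low in *Dnmt1*-WT, and all 8 listed genes were higher in *Dnmt1*-KO. Their summed level was 4.53 FPKM in *Dnmt1*-WT and 104.03 FPKM in *Dnmt1*-KO (ratio 23.0), or 0.00105% and 0.0226% of the FPKM sum of the respective library. All 6 genes above 0 in both libraries at least doubled, where 11.8% of the 16102 genes above 0 in both did and 4.98% were at a ratio of 0.5 or less. Of these 6, 5 were at a ratio of 10 or more, compared with 1.12% of all genes. Among the 7616 genes with a geometric mean level within the range of these 6 (0.309 to 8.53 FPKM), 15.2% at least doubled and 1.37% were at 10 or more. The median log2 ratio of FPKM + 0.1 was 3.61 over the 8 listed genes and 0.0 over all listed genes. Over the 16102 genes above 0 in both libraries, a ratio of 1.0 ranked 8107 from the highest. Because the genes were chosen on these values, the counts are set beside the background and nothing is read from the difference.

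**Figure D1:**
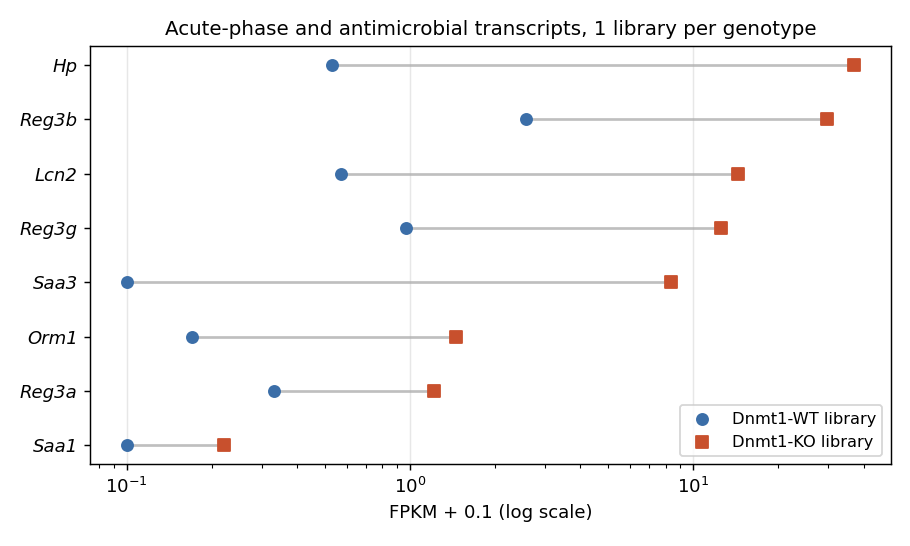
FPKM + 0.1 (log scale, horizontal) of each listed acute-phase and antimicrobial gene in the *Dnmt1*-WT library (circles) and the *Dnmt1*-KO library (squares), 1 library per genotype. Every square lies to the right of its circle, with *Hp* at 36.92 and *Saa1* at 0.12 FPKM as the highest and lowest *Dnmt1*-KO values.

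*Hp*, whose product clears haemoglobin from plasma, stood at 0.43 FPKM in *Dnmt1*-WT and 36.92 FPKM in *Dnmt1*-KO. The ratio was 85.9, and values rounded to 2 decimals allow 84.9 to 86.9. *Hp* ranked 8 of the 16102 genes above 0 in both libraries by ratio and 1979 of 18159 by level in the *Dnmt1*-KO library. It was thus the most abundant of the 8 in *Dnmt1*-KO, with 35.5% of their sum, although it lay below *Reg3b*, *Reg3g* and *Lcn2* in *Dnmt1*-WT. The gene lies at chr8:109575128-109579172 on the minus strand (GRCm38, GENCODE M21), and no 50-base window of its longest coding transcript recurred in another gene. Hemopexin (*Hpx*), the plasma haem carrier that acts beside haptoglobin, went from 0 to 0.13 FPKM.

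*Saa3*, the serum amyloid A gene known outside the liver, went from a listed 0 in *Dnmt1*-WT to 8.24 FPKM in *Dnmt1*-KO. *Saa1* was at 0 and 0.12 FPKM. These were the 2 genes of the 8 that were above 0 in *Dnmt1*-KO alone, which was so for 5.25% of all listed genes. The table gives no read counts and no limit for a listed 0, so no fold is given for either. *Saa1* in *Dnmt1*-KO lies close to the lowest value the table lists, whereas *Saa3* does not.

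The Saa genes share a cluster of 4 genes over 42.3 kb of chromosome 7, with *Saa3* at chr7:46711998-46715700 and *Saa1* at chr7:46740497-46742980 on the minus strand, and *Saa2* at chr7:46751790-46754313 on the plus strand. The longest coding transcripts of *Saa1* and *Saa2* were 94.4% identical, and 13.2% of the 50-base windows of *Saa1* also occurred in *Saa2*. Their promoter windows were 96.0% identical. RefSeq lists each of these symbols as a synonym of the other, so the row named *Saa1* may stand for either gene, and its value is uncertain. For *Saa3*, 3.91% of windows recurred in another gene. *Saa4*, the constitutive member of the cluster, had no row.

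*Lcn2*, an iron-withholding protein of neutrophils, epithelia and fat, stood at 0.47 FPKM in *Dnmt1*-WT and 14.28 FPKM in *Dnmt1*-KO. The ratio of 30.4 (30.1 to 30.7 from rounding) ranked 33 of 16102. *Lcn2* was close to *Hp* in the *Dnmt1*-WT library, where the ratio of *Hp* to *Lcn2* was 0.915, whereas in the *Dnmt1*-KO library *Hp* stood 2.59-fold above it. The gene lies at chr2:32384633-32388252 on the minus strand, and its transcript shared no window with another gene.

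*Reg3b* was the most abundant of the genes in the *Dnmt1*-WT library, at 2.46 FPKM or 54.3% of their sum, and reached 29.58 FPKM in *Dnmt1*-KO, a ratio of 12.0. *Reg3g*, which encodes a lectin that binds peptidoglycan of Gram-positive bacteria, stood at 0.87 and 12.41 FPKM, a ratio of 14.3 (14.2 to 14.4 from rounding). *Reg3a* stood at 0.23 and 1.12 FPKM, a ratio of 4.87 (4.74 to 5.0), which ranked 500 of 16102 and was the lowest ratio of the 6. *Reg3b* and *Reg3g* stood in similar proportion in both libraries, with *Reg3b* 2.83-fold above *Reg3g* in *Dnmt1*-WT and 2.38-fold in *Dnmt1*-KO. *Reg3a* differed less, since *Reg3b* was 10.7-fold above it in *Dnmt1*-WT and 26.4-fold in *Dnmt1*-KO. Together the Reg3 genes made up 78.6% of the summed level of the 8 genes in *Dnmt1*-WT and 41.4% in *Dnmt1*-KO.

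The Reg cluster holds 6 genes over 98.2 kb of chromosome 6, from *Reg3b* (chr6:78370657-78373466, plus strand) past *Reg3a* (chr6:78380709-78383827, plus strand) to *Reg3g* (chr6:78466269-78468872, minus strand). None of the other genes of the cluster was higher in *Dnmt1*-KO. *Reg1*, a regenerating protein gene expressed in pancreatic acinar cells, was lower in *Dnmt1*-KO, at 5.21 FPKM in *Dnmt1*-WT and 2.52 FPKM in *Dnmt1*-KO, or 51.6% lower. *Reg3d* had 0.34 FPKM in *Dnmt1*-WT but a listed 0 in *Dnmt1*-KO, and *Reg2* was at 0 in both. Of the 6 genes, 3 were therefore higher in *Dnmt1*-KO, 2 were lower and 1 was not detected. *Reg4*, a family member outside the cluster, stood at 0.81 and 2.66 FPKM, a ratio of 3.28.

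**Figure D2:**
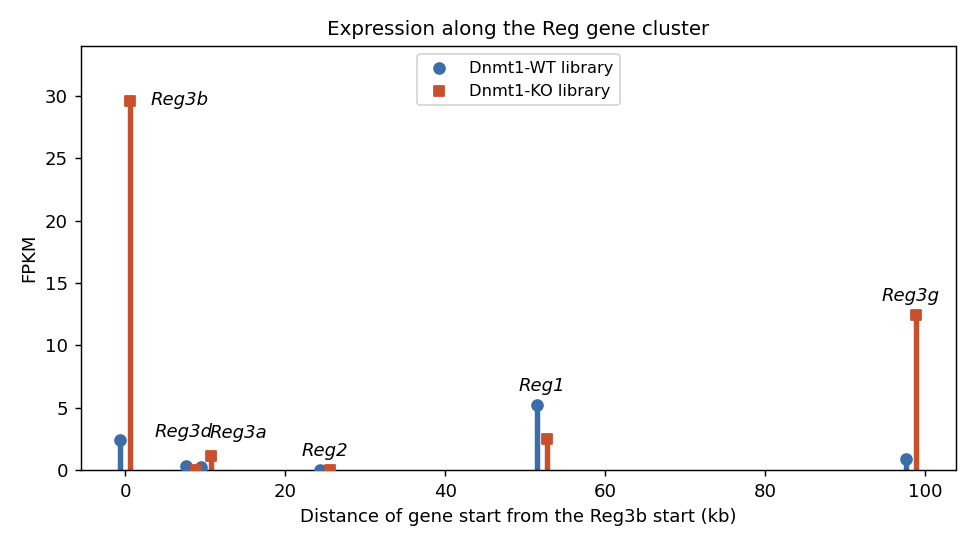
FPKM (vertical) of the 6 genes of the Reg cluster at the distance of their starts from the *Reg3b* start (kb, horizontal), with *Dnmt1*-WT as circles and *Dnmt1*-KO as squares, shifted sideways for legibility. *Reg3b* and *Reg3g*, at the ends, are highest in *Dnmt1*-KO, and *Reg1*, 52.1 kb from *Reg3b*, is higher in *Dnmt1*-WT.

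The Reg3 transcripts are similar in sequence without being near-identical. *Reg3a* and *Reg3b* were 75.9% identical, *Reg3b* and *Reg3g* 74.7%, and *Reg3a* and *Reg3g* 70.5%, and none of the 3 shared a 50-base window with another gene. Their promoters were less alike than those of *Saa1* and *Saa2*, at 71.4% between *Reg3b* and *Reg3g*. Markers of pancreatic acinar cells, which also express Reg genes, were lower in *Dnmt1*-KO. Of 11 listed acinar markers, all 11 were lower, with a median log2 ratio of -4.19 against 0.0 over all listed genes. Above 0 in *Dnmt1*-WT alone were 7 of them, as were 530 of all 18159 listed genes. The sum of the 11 was 56.34 FPKM in *Dnmt1*-WT and 4.27 FPKM in *Dnmt1*-KO. *Ctrb1*, encoding chymotrypsinogen, stood at 13.26 and 0.63 FPKM (ratio 0.0475, the smallest), *Cela1*, an elastase gene, at 4.26 and 2.34 FPKM (0.549, the largest), and *Cela2a*, another, at 12.8 FPKM and 0. Their part in the levels of *Reg1* and *Reg3d* was not tested.

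*Orm1* stood at 0.07 FPKM in *Dnmt1*-WT and 1.36 FPKM in *Dnmt1*-KO, a ratio of 19.4 that rounding alone leaves between 18.1 and 21.0. *Orm2*, its neighbour in a cluster of 3 genes over 21.3 kb, went from 0 to 0.65 FPKM, and *Orm3* had no row. *Orm1* lies at chr4:63344560-63348163 on the plus strand. Its transcript was 91.0% identical to that of *Orm2*, with 20.4% of 50-base windows shared, so reads can be assigned to either gene and both values are uncertain.

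The order of levels differed between the libraries. In *Dnmt1*-WT it ran from *Reg3b* through *Reg3g*, *Lcn2*, *Hp* and *Reg3a* to *Orm1*, with *Saa3* and *Saa1* at 0. In *Dnmt1*-KO it ran from *Hp* through *Reg3b*, *Lcn2*, *Reg3g*, *Saa3*, *Orm1* and *Reg3a* to *Saa1*. *Hp* was 0.175 times the level of *Reg3b* in *Dnmt1*-WT and 1.25 times in *Dnmt1*-KO. Without replicates it is unknown which neighbours in either order differ beyond their spread.

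**Figure D3:**
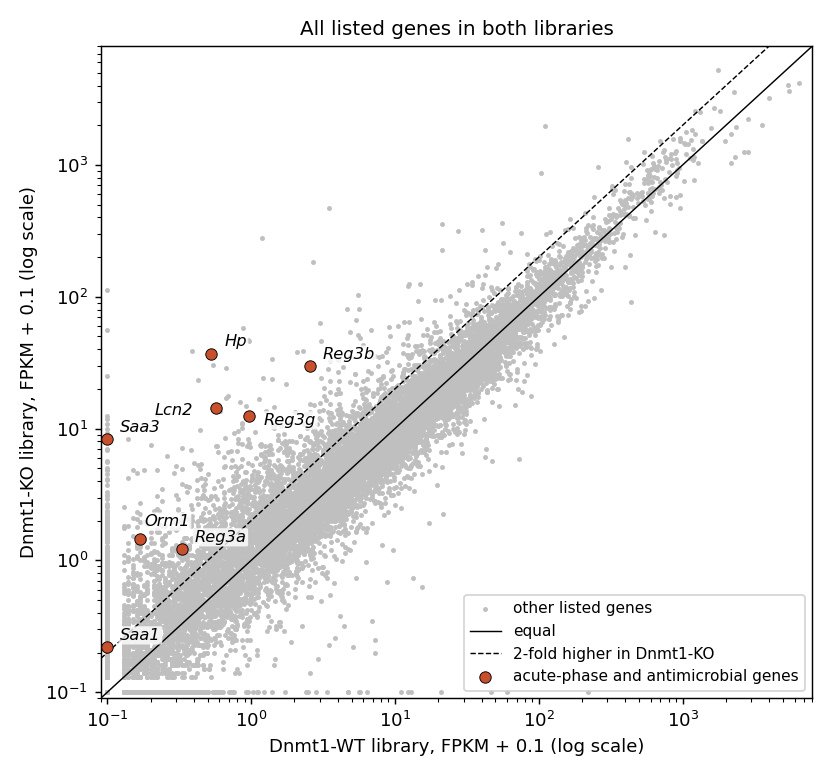
FPKM + 0.1 of each of the 18159 listed genes in the *Dnmt1*-WT library (horizontal, log scale) and the *Dnmt1*-KO library (vertical, log scale), with the acute-phase and antimicrobial genes named. The 6 named genes above 0 in both libraries lie above the dashed line of a ratio of 2, *Saa3* and *Saa1* stand at the left edge, and 11.8% of the 16102 genes above 0 in both libraries have such a ratio or more.

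The genes closest to them in level, by Euclidean distance of log2(FPKM + 0.1) over the 2 libraries, were named for each gene at 1 FPKM or more. *Hp* was closest to *Apoc1*, an apolipoprotein gene (0.44 and 30.09 FPKM, distance 0.3), and to the adipokine gene *Retn* (0.29 and 38.62 FPKM, distance 0.45). *Saa3* was closest to *Lrg1*, itself an acute-phase gene, at 0 and 8.28 FPKM (distance 0.01), then to *Ankrd1* at 0 and 9.18 FPKM (0.15). *Reg3g* was closest to *Lbp*, the lipopolysaccharide binding protein gene, at 0.76 and 11.02 FPKM (distance 0.24), then to the ficolin gene *Fcna* (0.25). These are likenesses in level over 2 libraries only. *Lcn2* was closest to the troponin gene *Tnnc2* (0.13) and the adipocyte gene *Adig* (0.34), and *Reg3b* to *Dpep1* (0.38) and *Retnla* (0.42). *Orm1* was closest to *Ly6k* (0.01) and the monocyte chemokine receptor gene *Ccr2* (0.05), and *Reg3a* to *Slfn3* and *BC051019* (0.05 each).

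Most other acute-phase genes were higher in *Dnmt1*-KO as well. Of 25 on the list, 19 had a row and 18 were higher, with a median log2 ratio of 1.36 (0.0 over all listed genes). Among the 16 above 0 in both libraries, 11 at least doubled (all genes 11.8%) and none was at 0.5 or less (4.98%). The other 3 were above 0 in *Dnmt1*-KO alone, as were 5.25% of all listed genes. *Lbp* had the largest ratio among those at 1 FPKM or more, at 14.5. *Hamp2*, a hepcidin gene, went from 0 to 10.69 FPKM, and the hepcidin gene *Hamp* had no row. The metallothionein genes *Mt2* and *Mt1*, whose products bind zinc, stood at 12.31 and 120.32 FPKM and at 56.38 and 255.82 FPKM. Complement *C3*, the most abundant of the list, had the smallest ratio among those at 1 FPKM or more, at 345.95 and 405.33 FPKM (1.17). *Fga*, a fibrinogen chain gene typical of liver, was listed at 0 and 0.03 FPKM, and *Crp* and *Apcs*, the pentraxin genes of the liver response, had no row.

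Other secreted antimicrobial genes were more mixed. Of 22 on the list, 19 had a row, 14 were higher and 4 lower in *Dnmt1*-KO, with a median log2 ratio of 0.68 (0.0 over all listed genes). Among the 15 above 0 in both libraries, 8 at least doubled (all genes 11.8%) and 1 was at 0.5 or less (4.98%). *Slpi*, a protease inhibitor gene and the most abundant, stood at 252.13 and 310.52 FPKM. Lysozyme genes were higher, with *Lyz2* of macrophages at 27.84 and 112.85 FPKM and *Lyz1* of Paneth cells at 1.17 and 13.61 FPKM (ratio 11.6, the largest of the list). *Zg16*, a goblet cell lectin gene, was lower at 63.1 and 38.22 FPKM, and *Pla2g5*, a secreted phospholipase gene, had the smallest ratio, 0.495. *Retnlb*, a goblet cell antimicrobial gene, was listed at 0 in both. Of the 22 genes, 3 are also on the Paneth cell list, 3 on the neutrophil list, 1 on the goblet cell list and 1 on the macrophage list.

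Apart from *Il18*, the cytokines that switch these genes in other tissues were under 1 FPKM or without a row. Of 14 on the list, 10 had a row. Among the 8 above 0 in both libraries, 4 at least doubled (all genes 11.8%) and 1 was at 0.5 or less (4.98%). The other 2 were above 0 in *Dnmt1*-KO alone, as were 5.25% of all listed genes. *Il18*, an interleukin of epithelium and macrophages, stood at 7.04 in *Dnmt1*-WT and 8.07 in *Dnmt1*-KO (ratio 1.15). *Il6*, the classical inducer of the hepatic acute phase, stood at 0.27 and 0.1 FPKM. *Il1b* stood at 0.16 FPKM in both, and *Tnf* at 0.15 and 0.38 FPKM. *Il22* and *Il17a*, the lymphocyte cytokines that act on *Reg3b*, *Reg3g* and *Lcn2* in epithelium, had no row, which does not show that they were absent. *Csf3* was listed at 0 and 0.48 FPKM.

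The 17 receptors and adaptors, all at 1 FPKM or more, serve these cytokines or, in *Tlr2*, *Tlr4*, *Tlr5* and *Cd14*, microbial products. Of the 17, 2 at least doubled, a share near the 11.8% of all genes, none was at 0.5 or less and 15 lay between. Their median log2 ratio was 0.25. *Il6st*, the shared signalling subunit gp130 of the interleukin-6 family, was the most abundant at 97.64 and 86.42 FPKM. *Cd14*, a co-receptor for lipopolysaccharide, had the largest ratio (1.2 and 4.86 FPKM, ratio 4.05), and *Il6ra* the smallest (8.47 and 5.16 FPKM, ratio 0.609). *Osmr*, the oncostatin M receptor gene, stood at 4.23 and 9.38 FPKM, and *Tnfrsf1a* at 65.32 and 77.91 FPKM.

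Among 19 kinases and transcription factors, 18 were above 0 in both libraries. Of these 18, 5 at least doubled (all genes 11.8%), none was at 0.5 or less (4.98%) and 13 lay between. The other 1 was above 0 in *Dnmt1*-KO alone, as were 5.25% of all listed genes. The median log2 ratio over the list was 0.41. *Cebpa*, a C/EBP factor of liver, fat and myeloid cells, had the largest ratio at 1.34 and 14.41 FPKM (10.8). *Cebpb*, the C/EBP factor induced in inflammation, stood at 24.37 and 45.51 FPKM, and *Stat3*, the most abundant of the list in *Dnmt1*-KO, at 43.19 and 56.05 FPKM. *Socs3*, a feedback target of STAT3, stood at 7.07 and 8.99 FPKM, and *Nfkbia*, a feedback target of NF-kB, at 30.72 and 32.28 FPKM. *Jak2* had the smallest ratio, at 14.41 and 8.78 FPKM (0.609), and *Foxa2*, a liver and gut endoderm factor gene, was listed at 0 and 0.12 FPKM. *Bcl3*, an NF-kB partner gene, stood at 1.59 and 6.51 FPKM.

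**Figure D4:**
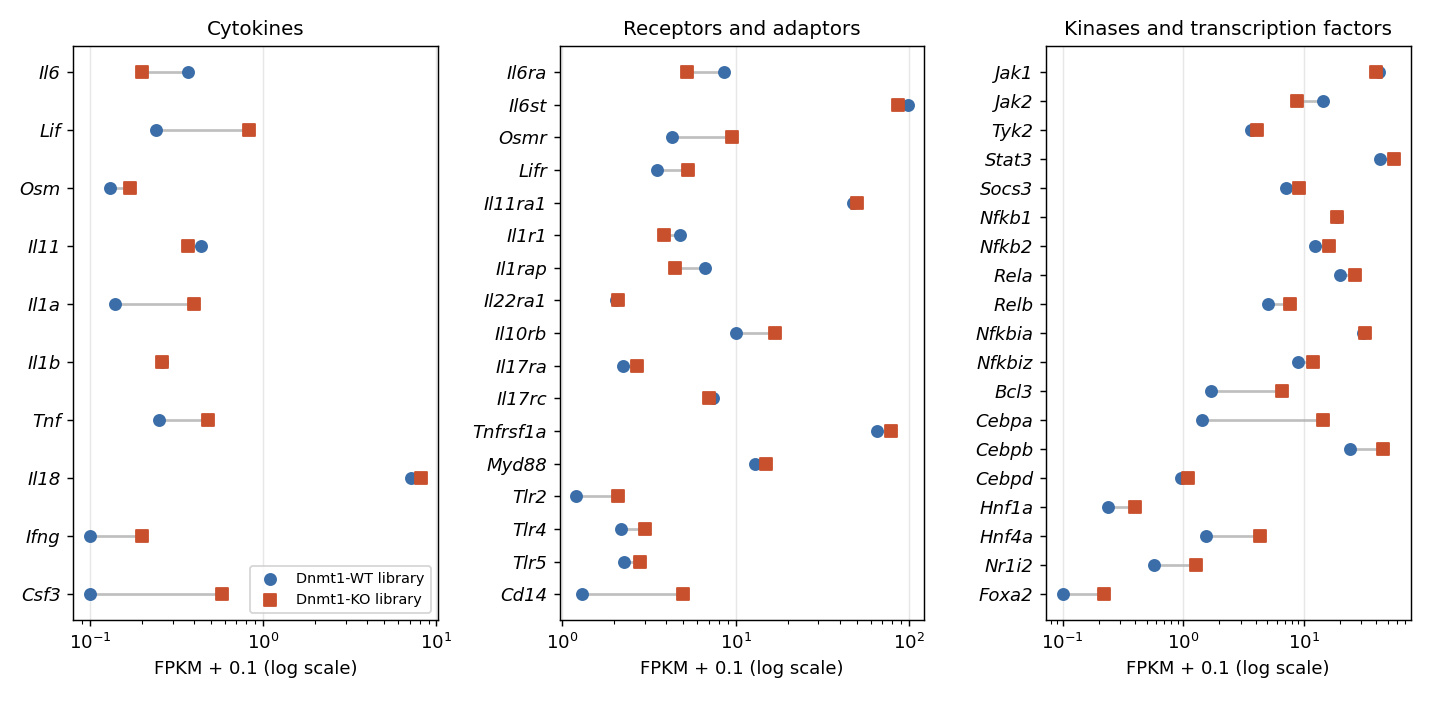
FPKM + 0.1 (log scale, horizontal) of the listed cytokines, receptors and adaptors for cytokines or microbial products, and kinases and transcription factors downstream. *Dnmt1*-WT is shown as circles and *Dnmt1*-KO as squares. Of the genes at 1 FPKM or more in a library, *Cebpa*, *Bcl3* and *Cd14* have the largest ratios (10.8, 4.09 and 4.05), and under 1 FPKM *Il1a* and *Lif* have ratios of 7.5 and 5.21 and *Csf3* is listed at 0 and 0.48 FPKM.

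Genes for the uptake of the secreted proteins were measured in the same tissue, as a list of receptors together with *Hmox1*, whose product is not a receptor but the enzyme that breaks down haem. *Hmox1* had the largest ratio of the list, 5.62. Of the 11 genes, *Hmox1* included, 10 were above 0 in both libraries. Of those 10, 6 at least doubled (all genes 11.8%) and none was at 0.5 or less (4.98%). The other 1 was above 0 in *Dnmt1*-KO alone, as were 5.25% of all listed genes. The median log2 ratio over all 11 was 1.44. *Cd163*, the macrophage receptor for haptoglobin bound to haemoglobin, stood at 4.5 and 12.56 FPKM. *Fpr2*, a formyl peptide receptor gene whose product also binds serum amyloid A, was listed at 0 and 1.12 FPKM, and *Scarb1*, a lipoprotein receptor gene, stood at 11.31 and 24.68 FPKM. *Slc22a17*, encoding a lipocalin 2 receptor, was near equal at 43.7 and 49.53 FPKM. *Extl3*, described as a receptor gene for Reg proteins, had the smallest ratio, at 34.56 and 23.43 FPKM (0.678). *Lrp1*, the most abundant, stood at 48.48 and 60.34 FPKM.

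Markers of several other cell types moved with the acute-phase and antimicrobial genes. The counts below stand beside shares of 11.8% at least doubled and 4.98% at 0.5 or less over all genes above 0 in both. Over the same genes a ratio of 1.0 ranked 8107 of 16102. Of 10 Paneth cell markers, all 10 were higher in *Dnmt1*-KO, and 7 of the 8 above 0 in both libraries at least doubled. The sum of the 10 was 21.15 FPKM in *Dnmt1*-WT and 201.47 FPKM in *Dnmt1*-KO, and *Defa3* and *Mmp7* were listed at 0 in *Dnmt1*-WT. The defensin gene *Defa24* stood at 12.43 and 125.32 FPKM, and among those at 1 FPKM or more *Defa5* had the largest ratio (0.04 and 4.13 FPKM, 103) and the progenitor factor gene *Sox9* the smallest (0.33 and 1.01 FPKM, 3.06). Of 14 enterocyte markers, 12 were higher, 8 at least doubled and 1 was at 0.5 or less, with sums of 392.23 and 875.71 FPKM, none at 0, and *Apoa4* at 208.37 and 433.8 FPKM. The lower ones were *Sis*, encoding sucrase-isomaltase, at 1.93 and 0.51 FPKM (ratio 0.264) and *Krt20* at 7.29 and 5.52 FPKM, and the largest ratio was that of *Cdx2*, 3.91. Of 8 goblet cell markers, 7 were higher and 3 at least doubled, with sums of 127.66 and 196.37 FPKM, none at 0, the largest ratio in *Spink4* (5.26 and 66.6 FPKM, 12.7) and the smallest in *Zg16* (0.606). The part of these cell types in the levels of *Reg3a*, *Reg3b*, *Reg3g* and *Lcn2* was not tested.

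Of 12 adipocyte markers, 11 were higher in *Dnmt1*-KO, and 10 of the 11 above 0 in both libraries at least doubled. The sum of the 12 was 133.94 FPKM in *Dnmt1*-WT and 1303.8 FPKM in *Dnmt1*-KO. *Fabp4* stood at 103.72 and 874.84 FPKM and *Adipoq* at 0.85 and 46.71 FPKM, *Lep* was listed at 0 in *Dnmt1*-WT, *Retn* had the largest ratio (133), and *Cidea* was lower at 15.91 and 13.21 FPKM (0.83). All 11 macrophage markers were higher and 10 at least doubled, with sums of 148.98 and 520.83 FPKM, none at 0, the complement genes *C1qa* at 31.57 and 125.26 FPKM and *C1qb* with the largest ratio (4.2), and the receptor gene *Csf1r* with the smallest (1.77). The summed adipocyte markers thus had a ratio of 9.73 and the summed macrophage markers one of 3.5. The part of these cell types in the levels of *Hp*, *Saa3*, *Lcn2* and *Orm1* was not tested.

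Of 12 hepatocyte markers 11 had a row, and all 11 were higher in *Dnmt1*-KO. The 9 above 0 in both libraries all at least doubled. The sums over the 11 were 3.46 FPKM in *Dnmt1*-WT and 16.73 FPKM in *Dnmt1*-KO, a ratio of 4.84. *Alb*, the albumin gene and the most abundant liver transcript, stood at 0.21 and 0.85 FPKM, and *Serpinc1* and *Ambp* were listed at 0 in *Dnmt1*-WT. *Cps1*, a urea cycle gene, was the highest and made up 1.08 and 6.25 FPKM of the hepatocyte marker sums. Whether its transcripts came from hepatocytes was not tested. Among those at 1 FPKM or more *Apoa2* had the largest ratio (6.06) and *Ttr* the smallest (2.71). Of 12 neutrophil markers 9 had a row and 6 were higher, and 3 of the 6 above 0 in both libraries at least doubled. The sums over the 9 were 8.7 and 13.77 FPKM, a ratio of 1.58. *Camp*, a cathelicidin gene, stood at 6.84 and 5.71 FPKM (ratio 0.835, the smallest), *Retnlg* at 0.67 and 4.06 FPKM (6.06, the largest) and *S100a8* at 0 and 2.0 FPKM. *Mpo*, the granule peroxidase gene, was listed at 0 in both libraries and *Ltf* at 0 in *Dnmt1*-WT, and *Elane* and *Ly6g* had no row. Of 9 mesothelial markers, 7 were higher and 2 at least doubled, with sums of 444.91 and 623.17 FPKM and none at 0. Both that doubled were keratin genes, and *Krt8*, *Krt18*, *Krt19* and *Krt7* had ratios of 2.34, 2.15, 1.96 and 1.69. The ratios were smaller in *Upk1b* (1.42), *Wt1* (1.23), *Msln* (1.08), *Upk3b* (0.93) and *Lrrn4* (0.893). The part of hepatocytes, neutrophils and mesothelium in the levels of *Hp*, *Lcn2*, *Saa1*, *Saa3* and *Orm1* was not tested.

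**Figure D5:**
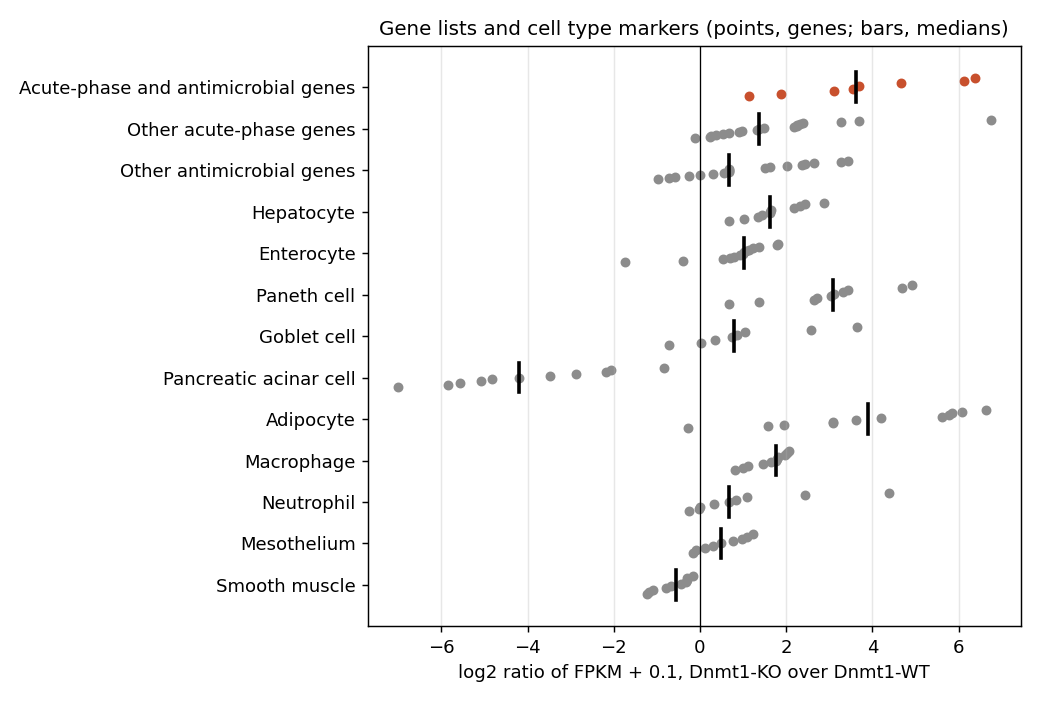
Log2 ratio of FPKM + 0.1, *Dnmt1*-KO over *Dnmt1*-WT (horizontal), of each gene of the lists (points) with the median of each list (bars). The acute-phase and antimicrobial genes have a median of 3.61, the adipocyte markers 3.91, the Paneth cell markers 3.09, the smooth muscle markers -0.55 and the pancreatic acinar markers -4.19.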

How the data were processed

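mRNA of jejunal tunica muscularis was sequenced by the authors from TruSeq libraries and mapped to GRCm38 (mm10). TopHat 1.4.1 and Cufflinks 2.0.2 are named in the submitters' processing notes without a role, and the annotation is not given in the sources used here. The deposited table holds FPKM per gene symbol for each library, rounded by the authors to 2 decimals, with transcript variant numbers and the authors' own ratio between genotypes, neither of which was used. No value column lacked a sample. Samples were grouped by the genotype label and title.

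Ratios are plain ratios of FPKM as deposited, without rescaling, for genes above 0 in both libraries. Medians use log2 of FPKM + 0.1. At least doubled means a ratio of 2 or more, and no fold was computed against 0. With 1 library per genotype no test was run. The genes described and the 19 lists around them (234 symbols, 21 without a row, *Adgre1* found under its synonym Emr1) were chosen with earlier results of these data known. Named were every member, every relative of the families, for each other list up to 3 genes of highest *Dnmt1*-KO level, the largest and smallest ratio at 1 FPKM or more and defining genes at 0, and the 2 nearest genes in level. Further list members, among them *Krt20*, *Il1a*, *Lif*, *Osmr*, *Socs3*, *Bcl3*, *Cd163* and *Scarb1*, were named for their role after their values were seen.

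Gene positions and transcripts came from GENCODE M21 and promoter windows from RefSeq (GRCm38.p6). Identity is over aligned bases of the longest coding transcript. Counting was tested on simulated data. Python 3.11.15, numpy 2.4.6, pandas 2.3.3, Biopython 1.88 and matplotlib 3.10.9 were used. Alternatives were scaling by the median, upper quartile or FPKM sum, the pseudocount, the fold and a level filter. Scaling to summed cell type markers was added after the data were seen.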

Additional observations from a re-analysis of the deposited data

How the results depend on the processing

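The 6 genes with a ratio stayed at least doubled under median centring, upper quartile and FPKM-sum scaling and at folds of 1.5 and 4, and the scalings moved the *Dnmt1*-KO library by a factor of 0.98 to 1.07. With FPKM + 1 and genes at 0 included the count was again 6, but *Reg3a* left it at 1.72 and *Saa3* entered. Over 6 other scalings and pseudocounts the ratio ranged from 26.5 to 87.7 for *Hp*, 10.4 to 31.0 for *Lcn2*, 2.21 to 19.8 for *Orm1*, 7.17 to 14.6 for *Reg3g*, 8.84 to 12.3 for *Reg3b* and 1.72 to 4.97 for *Reg3a*, with the lowest always from FPKM + 1, which shrinks ratios of low genes by construction. At a ratio of 10 or more, only *Hp* and *Lcn2* remained with FPKM + 1, and *Orm1* fell to 8.59 with FPKM + 0.1. The median log2 ratio of 3.61 was 2.99 with a pseudocount of 1.

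After the data were seen, the *Dnmt1*-KO library was also scaled to summed marker levels. This divides every ratio by 1 factor, 2.23 for enterocyte, 3.5 for macrophage, 9.53 for Paneth cell and 9.73 for adipocyte markers. A gene with a ratio smaller than the factor thus falls below 1 by construction. Scaled to enterocyte markers all 6 stayed above 2, with *Hp* at 38.5, *Lcn2* at 13.6 and *Reg3a* at 2.18. Scaled to macrophage markers *Hp* stood at 24.6 and *Reg3a* at 1.39. Scaled to Paneth cell markers *Hp* stood at 9.01, *Lcn2* at 3.19, *Reg3g* at 1.5 and *Reg3b* at 1.26, and *Reg3a* fell below 1, to 0.511. *Defa24* made up 125.32 of the 201.47 FPKM of the Paneth cell sum in *Dnmt1*-KO, and single markers had ratios from 1.82 in *Ang4* to 103 in *Defa5*. Scaled to adipocyte markers *Hp* stood at 8.82, *Lcn2* at 3.12, *Orm1* at 2.0, *Reg3g* at 1.47 and *Reg3b* at 1.24, and *Reg3a* fell below 1, to 0.5. *Fabp4* made up 874.84 of the 1303.8 FPKM of the adipocyte sum in *Dnmt1*-KO. Its ratio was 8.43, whereas single adipocyte markers ranged from 0.83 in *Cidea* to 133 in *Retn*, so the scaled values depend on the marker. The cause of the higher levels in *Dnmt1*-KO was not tested. The table gives no read counts per gene, so no counting interval was computed. *Orm1* at 0.07 FPKM in *Dnmt1*-WT and *Saa1* at 0.12 FPKM in *Dnmt1*-KO lie near the lowest listed value of 0.03. No paired analysis was possible because each genotype has 1 library.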

Other observations

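Globin transcripts, which encode haemoglobin, the ligand of haptoglobin, were present in both libraries. Haemoglobin protein was not measured in these libraries. Of 9 erythroid genes 8 had a row. The 5 above 0 in both libraries all at least doubled, against 11.8% of all genes above 0 in both. The sum over the 8 was 172.28 FPKM in *Dnmt1*-WT and 562.17 FPKM in *Dnmt1*-KO, a ratio of 3.26. The alpha-globin gene *Hba-a2* stood at 42.34 and 224.69 FPKM and the beta-globin gene *Hbb-bs* at 75.01 and 304.43 FPKM. *Hbb-b1*, a near-identical beta-globin, had 46.41 FPKM in *Dnmt1*-WT but a listed 0 in *Dnmt1*-KO, and how reads were divided among the beta-globin rows is unknown. *Alas2*, the erythroid enzyme of haem synthesis, stood at 0.95 and 2.95 FPKM, and *Hba-a1* was listed at 0 in both libraries. *Hmox1*, which encodes haem oxygenase 1 and breaks down haem after uptake through CD163, stood at 1.6 and 8.99 FPKM, a ratio of 5.62, the largest among the receptor and uptake genes at 1 FPKM or more. The ratio of *Hp* was 85.9 in the same libraries, and a link between these levels was not tested.

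Further acute-phase genes, of a list in which 18 of 19 were higher, had these values. *Cp*, the ferroxidase ceruloplasmin, stood at 1.23 and 6.29 FPKM, and *Steap4*, a metalloreductase, at 7.78 and 15.44 FPKM, a ratio of 1.98. *Serpina3n*, a protease inhibitor gene of the acute phase, stood at 2.89 and 15.6 FPKM, and *Timp1*, an inhibitor of matrix metalloproteinases, at 5.93 and 16.89 FPKM. No difference between libraries has a replicate check.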
